A study of Mus musculus with 6 samples.

Results

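Phosphatidylcholine and phosphatidylethanolamine are the main phospholipids of cell membranes, and 10 mouse genes for their synthesis and remodelling were followed in the small intestine after deletion of Fitm2, the gene of FIT2, a lipid droplet protein residing in the endoplasmic reticulum. The genes were Chpt1, Cept1, Selenoi, Pcyt1a, Pcyt2, Chka, Etnk1, Pemt, Lpcat3 and Ptdss1. They were found by symbol among probe sets annotated to 1 gene and each was represented by its brightest probe set. All 10, of 18193 genes on the array, had a mean above the limit for dim genes (an intensity of 38.9), which left 13042 genes in all. The 10 genes had 27 probe sets between them.

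The controls carry the label L/L, which usually denotes loxP-flanked alleles but is not spelled out there. The deletion mice, labelled KO, carried the same L/L alleles with ROSA26CreERT2, a Cre recombinase made from a ubiquitously active locus and switched on by tamoxifen, so that deletion was not restricted to the intestine. Tamoxifen was injected intraperitoneally at 100 µg per g on days 1, 2 and 3, and the labels do not limit it to 1 genotype. On day 2, 3 or 5, which the labels call days post-tamoxifen, the small intestine was removed whole and flushed. Each of the 6 groups was 1 array of RNA pooled from several mice. The L/L pools held 6, 6 and 8 mice on days 2, 3 and 5, and the KO pools held 7, 6 and 7. The sources used here do not state strain, age or sex. The L/L mice carried no Cre, so an effect of active CreERT2 and an effect of losing Fitm2 cannot be told apart.

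Both phospholipids are made in the endoplasmic reticulum and Golgi by the parallel arms of the Kennedy pathway. A kinase phosphorylates choline or ethanolamine, a CTP-dependent transferase activates the product, and a phosphotransferase joins the headgroup to diacylglycerol. Phosphatidylethanolamine can also be methylated to phosphatidylcholine, mainly in liver, and phosphatidylserine synthases exchange the headgroups for serine. In the absorbing cells of the intestine phosphatidylcholine coats the chylomicrons that carry dietary fat, and diacylglycerol is shared between phospholipid and triglyceride synthesis.

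The genotype difference of Chpt1, which encodes the phosphotransferase dedicated to phosphatidylcholine, fell with day, and KO was 2.52-fold lower than L/L on day 5. Selenoi, which encodes the phosphotransferase for phosphatidylethanolamine, lay the other way in its brightest probe set, 1.45-fold higher in KO on day 5. Its other probe sets differed less on that day. Cept1, whose enzyme accepts both headgroups, stayed within 0.14 of L/L on the log2 scale on every day. Pcyt2 and Chka had lower intensities on day 5 than on day 2 in both genotypes. None of the 10 passed the test of a genotype difference over the 3 days, and Chpt1 alone passed the test of a change with day, which 1.23% of all genes passed. That call was lost under 2 other settings and with 2 of its other 3 probe sets.

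The 250 bases upstream of the RefSeq start are shown for Chpt1 and Selenoi, the genes with the lowest and the highest mean difference between KO and L/L (RefSeq, build GRCm38.p6). The Chpt1 stretch is chr10:88503971-88504220 on the minus strand and that of Selenoi is chr5:30232331-30232580 on the plus strand, both read 5′ to 3′. Capitals mark GGGCGG (the GC box) and CCAAT, each searched on both strands. The palindrome CACGTG, an E-box, was searched as well.
Chpt1: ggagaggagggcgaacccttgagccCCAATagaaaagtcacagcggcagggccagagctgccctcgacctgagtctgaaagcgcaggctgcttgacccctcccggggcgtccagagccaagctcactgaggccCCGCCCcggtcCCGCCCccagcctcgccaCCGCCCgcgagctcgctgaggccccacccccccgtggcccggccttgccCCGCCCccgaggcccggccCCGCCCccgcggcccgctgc
Selenoi: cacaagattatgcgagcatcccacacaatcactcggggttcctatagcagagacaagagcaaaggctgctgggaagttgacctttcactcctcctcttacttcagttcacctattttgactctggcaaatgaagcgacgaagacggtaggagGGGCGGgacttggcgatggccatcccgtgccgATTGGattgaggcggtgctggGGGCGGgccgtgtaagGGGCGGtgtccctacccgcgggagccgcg
The Chpt1 stretch held 5 GC boxes and 1 CCAAT match, at a GC content of 75.6%. The Selenoi stretch held 3 and 1, at 58.4%. Neither held the E-box. Of 32851 upstream windows of the same length, 32.7% held at least 1 GC box, 33.8% a CCAAT match and 6.02% the E-box. Of the 10 genes 8 had an entry, the others being Pcyt2 and Ptdss1. The arrays measured RNA, so these matches are a description of the sequence and of no binding.

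The arrays themselves differed little in overall brightness, with medians between 57.7 and 59.7. The correlation of log2 intensity between arrays over the genes kept ran from 0.978 to 0.997, and the KO day 5 array had the lowest values. Fitm2 itself measured 193, 223 and 211 in the L/L pools of days 2, 3 and 5, against 123, 127 and 120 in the KO pools. Its mean difference of -0.76 did not pass the test over the 3 days (adjusted p = 0.125 in limma). A gene that fails that test is therefore not shown to be unchanged. Xist, the RNA that silences one X chromosome in females, stood at 2433, 3126 and 3052 in the L/L pools, against 1090, 3030 and 1398 in the KO pools, and the part of sex in the differences described here was not tested. Of the intestine's own markers, 8 enterocyte genes were measured, and their summed intensity lay between 122627 and 127673 in L/L and between 123976 and 129343 in KO. In bulk tissue fewer cells of a type and less RNA per cell cannot be told apart.

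Chpt1 had the widest range of the 10 genes. Its intensity was 2854, 2505 and 3075 in L/L against 2467, 1896 and 1220 in KO on days 2, 3 and 5. In this probe set, the brightest, all 3 KO arrays lay below all 3 L/L arrays. Its KO arrays were ordered by day while the L/L arrays were not. The log2 difference was -0.21, -0.40 and -1.33. In limma the difference fell by 0.39 per day (SE 0.05, 6 arrays, adjusted p = 0.0454), and by 0.19 between days 2 and 3 against 0.47 per day between days 3 and 5. That test called 160 of 13042 genes, or 1.23% of all, 76 of them (0.583%) falling with day.

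**Figure D1:**
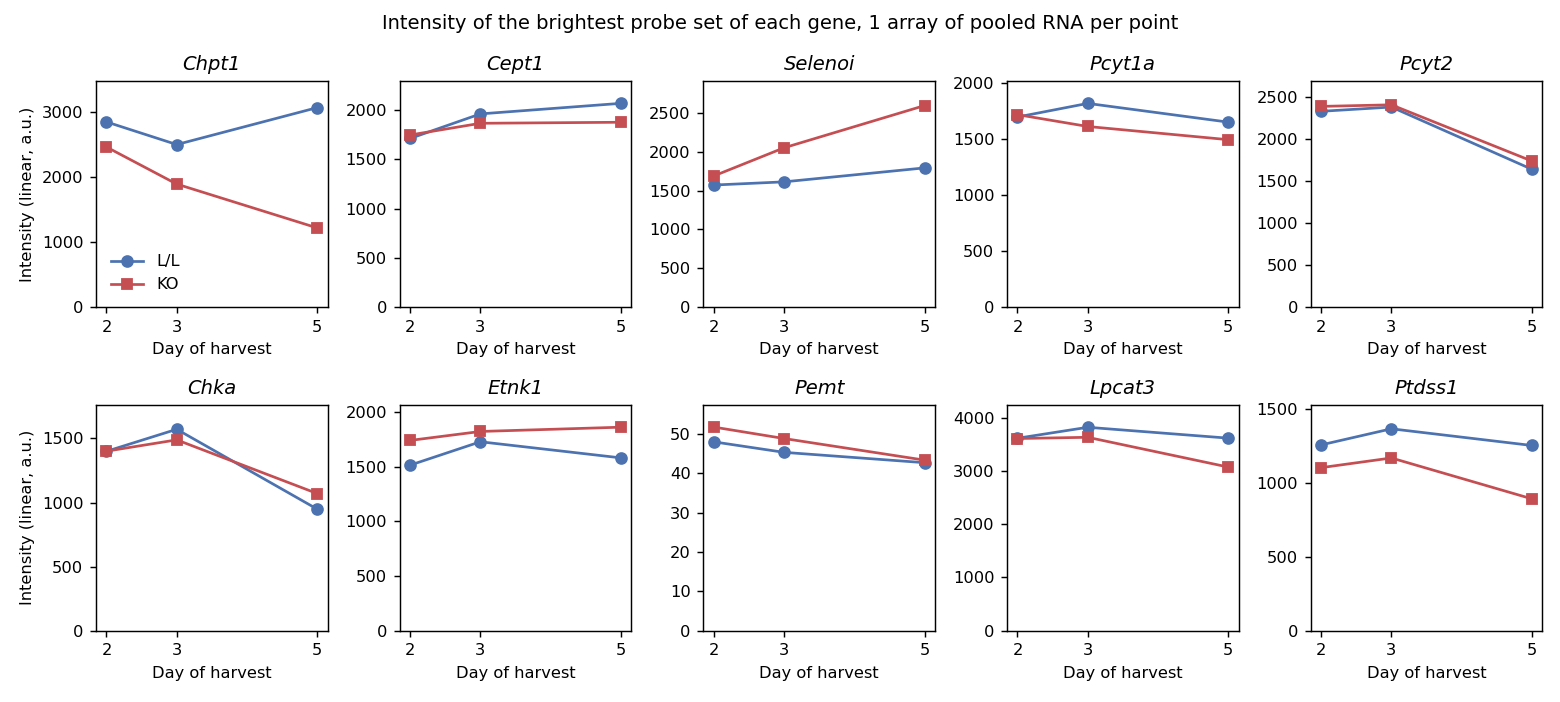
Linear intensity (arbitrary units, axis from 0) of the brightest probe set of each gene against day of harvest, for L/L (blue circles) and KO (red squares). Each point is 1 array of pooled RNA, so there are no error bars. Chpt1 in KO goes from 2467 on day 2 to 1220 on day 5 while L/L stays at 2505 or above, and Pcyt2 and Chka are lower on day 5 in both genotypes.

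The call for Chpt1 was close to the threshold. It was lost without the filter on dim genes (adjusted p = 0.169) and with days taken as equally spaced (adjusted p = 0.0783), in a range over all alternatives from 0.00848 to 0.169. The gene had 4 probe sets, and all of them were lower in KO on all 3 days, with day 5 differences between -1.37 and -1.13. In the other 3 the KO day 2 array lay within the range of L/L, so the groups overlapped. The L/L arrays of the second brightest were also ordered by day, at 1639, 1388 and 1203. Used in place of the brightest, the others, in order of brightness, changed by -0.37, -0.36 and -0.30 per day (adjusted p = 0.09, 0.0456 and 0.062 in limma). Averaged over the 3 days Chpt1 differed by -0.65 ± 0.60 (SD over 3 days) with an SE of 0.23, and this did not pass (adjusted p = 0.394). Without day 5 it was -0.31 (adjusted p = 0.483).

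The genes whose pattern over the 6 arrays was most like that of Chpt1 were Otc (Pearson r = 0.997), Tmtc4 (0.996), Qdpr (0.993) and Epb41l3 (0.993), a description over 6 arrays that share the KO day 5 pool. Otc encodes ornithine transcarbamylase, a mitochondrial enzyme of citrulline synthesis, and Qdpr encodes dihydropteridine reductase. On day 5 the log2 difference was -1.38 for Otc, -0.69 for Tmtc4, -0.66 for Qdpr and -0.81 for Epb41l3.

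Markers of several cell types differed between the genotypes over the same days. The medians of 5 crypt and dividing cell genes were 0.03, -0.13 and -0.68 by day, with a summed intensity of 7692 to 8589 in L/L and 3043 to 8084 in KO. Olfm4, a stem cell gene, fell with day in KO relative to L/L (adjusted p = 0.0454), and 1 of the 5 was lower in KO on all 3 days. All 4 enteroendocrine genes rose with day in KO relative to L/L (adjusted p of 0.0454 to 0.0469 in limma). So did 2 of 5 myeloid genes, Lyz2 and Cd68. In both lists the summed intensity fell with day within L/L as well as rising within KO. For the enteroendocrine genes the L/L pools gave 4562 on day 2, then 3948, then 2846 on day 5. Their KO sums were 4682, 4923 and 5923. For the 5 myeloid genes the L/L sums were 2753, 2455 and 2050 by day, beside KO sums of 2959, 3357.5 and 4492. Cd68 was dim, at 64.4, 59.3 and 31.7 in L/L against 60.2, 71.3 and 60.8 in KO. Its L/L day 5 value lay below the limit of 38.9 for dim genes, so its change is poorly measured. Of 8 enterocyte genes none passed, and their medians were 0.03, -0.00 and 0.01. All 4 Paneth cell genes were higher in KO on all 3 days, with medians of 0.26, 0.39 and 1.03, and none of them passed. So were all 4 endothelial genes (medians 0.10, 0.25 and 0.45), again with none past the test. Over all genes 22.1% were higher and 17.4% lower in KO on all 3 days, and 1.23% passed for the change with day. Of 4 goblet cell genes 3 were higher on all 3 days (medians 0.02, 0.26 and 0.12). The medians of 3 T cell genes were -0.06, 0.03 and -0.21. The pancreatic acinar, hepatocyte, and B and plasma cell lists had 2 measured genes each. None in these further lists passed. On day 5 the median was 0.48 for 5 fibroblast genes, 0.27 for 5 smooth muscle genes and 0.57 for 2 adipocyte genes, of which none passed. The fibroblast sum on day 5 was 12074 in L/L against 16577 in KO. No measured marker was at 0, but the lowest intensity of the data was 3.82, so this does not show that a cell type was present. The part of these cell types in the Chpt1 result was not tested.

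Cept1 encodes the choline/ethanolamine phosphotransferase of the endoplasmic reticulum, the other enzyme able to complete phosphatidylcholine. It measured 1711, 1960 and 2067 in L/L against 1746, 1865 and 1875 in KO. The genotypes overlapped, and the sign of the difference was mixed at 0.03, -0.07 and -0.14. The mean was -0.06 ± 0.09 (SD over 3 days), with a 95% confidence interval from -0.23 to 0.11. Cept1 had 1 probe set.

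Selenoi encodes a selenoprotein that transfers phosphoethanolamine to diacylglycerol. Its brightest probe set had array values of 1571, 1612 and 1791 in L/L against 1688, 2050 and 2593 in KO. KO was the higher on each day, although the KO day 2 array lay within the range of L/L. The log2 differences were 0.10, 0.35 and 0.53, with a mean of 0.33 ± 0.22 (SD over 3 days, 95% confidence interval from 0.08 to 0.58). It did not pass over the 3 days (adjusted p = 0.381) or for its change with day (0.14 per day, adjusted p = 0.226). The probe sets disagreed in size. The other 3 had mean differences of 0.03, 0.13 and 0.07 and day 5 differences of 0.11, 0.28 and 0.14. Of the 4, 2 were higher in KO on all 3 days.

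**Figure D2:**
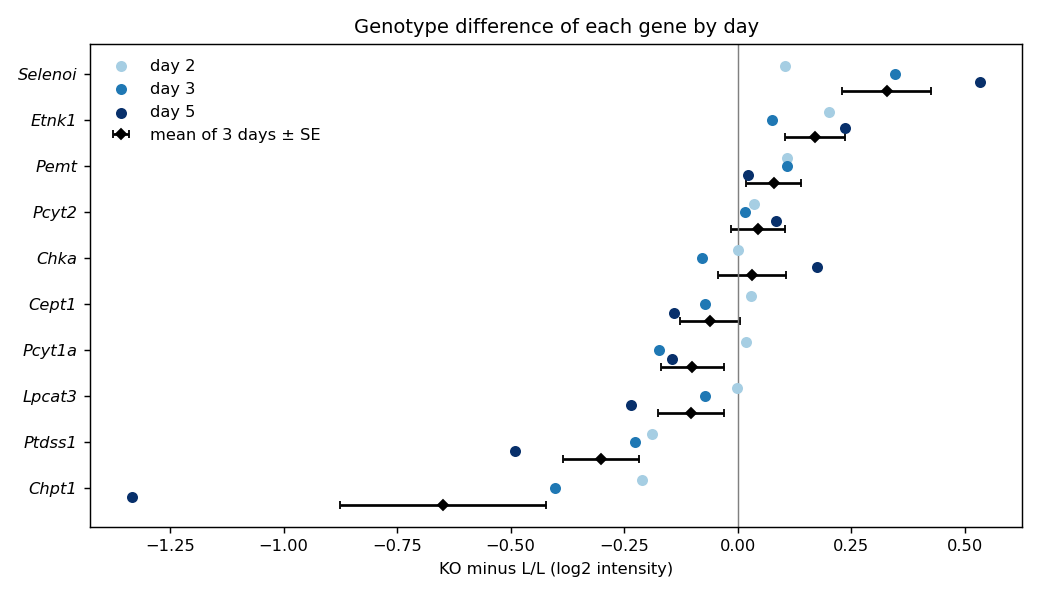
Log2 difference between KO and L/L for each gene on days 2, 3 and 5 (points, 1 array per genotype and day) with the mean of the 3 days and its standard error from limma (diamonds). Genes are ordered by the mean, from Chpt1 at -0.65 to Selenoi at 0.33, and Chpt1 on day 5 lies farthest from 0.

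The kinases open the pathway. Chka encodes choline kinase alpha and had array values of 1399, 1571 and 948 in L/L against 1400, 1489 and 1070 in KO. Between the genotypes it differed by 0.00, -0.08 and 0.17, with overlapping groups (mean 0.03 ± 0.13, SD over 3 days). The mean was -0.04 without day 5. Etnk1 encodes ethanolamine kinase and measured 1515, 1729 and 1581 in L/L against 1741, 1823 and 1862 in KO. All 3 KO arrays of Etnk1 lay above all 3 L/L arrays, the lowest KO array by a small margin. Its mean difference was 0.17 ± 0.08 (SD over 3 days, 95% confidence interval from 0.0024 to 0.34), which did not pass (adjusted p = 0.403).

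The 5 Etnk1 probe sets did not share a direction. Of these, 3 were higher in KO on all 3 days, and the means ran from -0.05 to 0.30. The second brightest went from 252 to 381 in L/L and from 277 to 592 in KO between days 2 and 5, a day 5 difference of 0.63. On day 5 those of brightness rank 3 and 4 differed by -0.02 and -0.16. Which transcripts each probe set detects was not analysed here.

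The CTP-dependent transferases of the middle step set the rate of each arm in many tissues. Pcyt1a, of the choline arm, had array values of 1695, 1817 and 1650 in L/L against 1717, 1611 and 1493 in KO. The groups overlapped, and the differences were 0.02, -0.17 and -0.14 (mean -0.10 ± 0.10, SD over 3 days, adjusted p = 0.536). The 4 Pcyt1a probe sets had means between -0.10 and -0.03. Pcyt2, of the ethanolamine arm, measured 2331, 2382 and 1641 in L/L against 2390, 2409 and 1739 in KO. KO was higher on each day by 0.04, 0.02 and 0.08, and the groups overlapped widely. The mean was 0.05 ± 0.03 (SD over 3 days, 95% confidence interval from -0.11 to 0.20).

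Of the remaining genes, Ptdss1 encodes the synthase that makes phosphatidylserine from phosphatidylcholine. Its intensity was 1256, 1365 and 1252 in L/L against 1102, 1168 and 891 in KO, with all KO arrays below all L/L arrays. The differences were -0.19, -0.23 and -0.49, with a mean of -0.30 ± 0.16 (SD over 3 days, 95% confidence interval from -0.52 to -0.09). Ptdss1 did not pass (adjusted p = 0.381), nor did its change with day (-0.11 per day, adjusted p = 0.312). The brightest Ptdss1 probe set is of a type whose probes can match more than 1 transcript. The second, which is not, was lower in KO on each day as well, with a mean of -0.16. The dimmest, near the limit for dim genes, had a mean of -0.05. Unlike in the brightest, the KO and L/L arrays overlapped in each of these probe sets.

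Lpcat3 encodes the acyltransferase that places polyunsaturated chains into phospholipids and is active in intestinal lipid absorption. It measured 3611, 3817 and 3613 in L/L against 3606, 3629 and 3071 in KO. KO was lower on each day, with differences of -0.00, -0.07 and -0.23, and the KO day 3 array lay within the range of L/L. The mean was -0.10 ± 0.12 (SD over 3 days, adjusted p = 0.54). Pemt, the methyltransferase that is chiefly active in liver, was dim at 48.0, 45.3 and 42.7 in L/L against 51.8, 48.9 and 43.4 in KO, close to the limit of 38.9, so its difference of 0.08 ± 0.05 (SD over 3 days) is poorly measured.

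**Figure D3:**
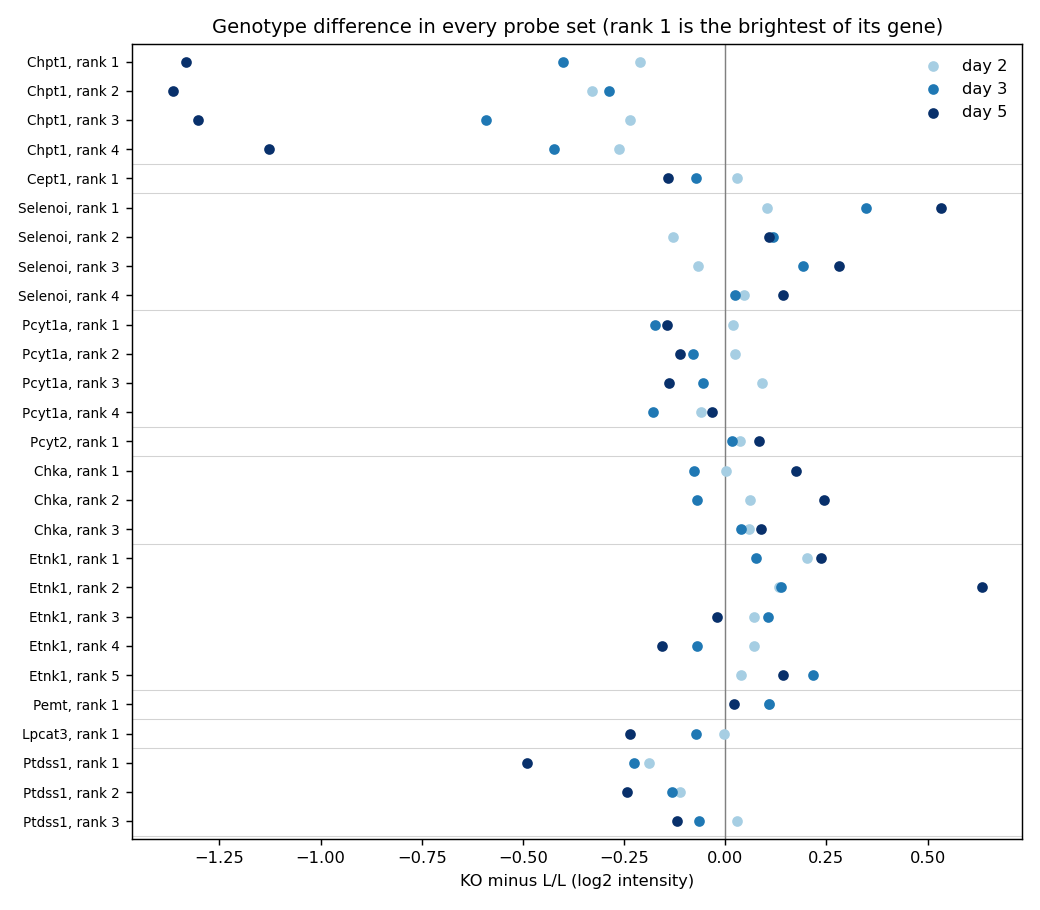
Log2 difference between KO and L/L on days 2, 3 and 5 in each of the 27 probe sets, grouped by gene and ordered from the brightest (rank 1). The 4 Chpt1 probe sets lie between -1.37 and -1.13 on day 5, whereas those of Etnk1 lie on both sides of 0.

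Over the 3 days limma called 0 of the 10 genes, against 3 of 13042, or 0.023%, of all. At an unadjusted p under 0.05 there were 4 (Chpt1, Selenoi, Etnk1 and Ptdss1), against 12.3% of all genes. KO was lower on all 3 days in 3 of the 10 (Chpt1, Lpcat3 and Ptdss1), where 17.4% of all genes were. KO was higher on all 3 days in 4 (Selenoi, Pcyt2, Etnk1 and Pemt), where 22.1% were. In the brightest probe sets the 3 KO arrays lay below the 3 L/L arrays for Chpt1 and Ptdss1 (5.66% of all genes). They lay above them for Etnk1 (7.48%). The median of the 10 mean differences was -0.01, beside 0.01 over all genes.

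On single days there is no replicate and no test. On days 2 and 3 none of the 10 genes differed by 1.5-fold or more, as did 0.537% and 1.6% of all genes. On day 5 Chpt1 did, and it was also past 2-fold, as were 8.29% and 2.16% of all genes, 0.882% being at least 2-fold lower. Chpt1 had the 46th lowest day 5 difference of 13042. The medians of the 10 were 0.02, -0.07 and -0.06 by day, beside 0.01, -0.01 and 0.02 over all genes.

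Within L/L, where tamoxifen was given and no Cre was present, the question was how the genes varied between days. With injections on days 1, 2 and 3, the tamoxifen received and the time since it may differ between harvests. Their part cannot be told apart from that of day. From day 2 to day 5 Chka and Pcyt2 had the largest differences, -0.56 and -0.51 on the log2 scale, or 1.48-fold and 1.42-fold lower on day 5. The other 8 lay between -0.17 (Pemt) and 0.27 (Cept1). None reached 1.5-fold, beside 2.92% of all genes. From day 3 to day 5 Chka was past 1.5-fold at -0.73 (1.97% of all genes), and Pcyt2 stood at -0.54. From day 2 to day 3 the 10 genes ranged from -0.19 (Chpt1) to 0.20 (Cept1), with a median of 0.09 beside 0.03 over all genes, and 0 of them reached 1.5-fold, where 1.62% did.

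From day 2 to day 5 Pcyt2 and Chka differed by -0.46 and -0.39 in KO, the same sign as in L/L. Fitted over both genotypes, the day 5 minus day 2 difference was -0.48 for Pcyt2 (SE 0.07, adjusted p = 0.101) and -0.47 for Chka (SE 0.09, adjusted p = 0.12), neither past the threshold. In limma no gene of 13042 was called between any 2 days (0%). At an unadjusted p under 0.05 there were 4 of the 10 genes between days 2 and 5 (Pcyt2, Chka, Selenoi and Pemt), against 21.1% of all genes. There were 0 between days 2 and 3 (9.78% of all genes) and 2 between days 3 and 5, Pcyt2 and Chka (17%). For Selenoi and Chka the result depended on the probe set. The day 5 minus day 2 difference of Selenoi, 0.40 in the brightest, was -0.22, -0.32 and 0.66 in the others. The second brightest Chka probe set was higher on day 5 than on day 2 in both genotypes, from 504 to 668 in L/L and from 525 to 791 in KO, while the dimmest went from 471 to 359 and from 490 to 382. One Pcyt1a probe set, the dimmest, was also lower on day 5, at 264 against 440 in L/L and 258 against 422 in KO. The other 3 differed by -0.04 to 0.16 between those days in L/L.

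**Figure D4:**
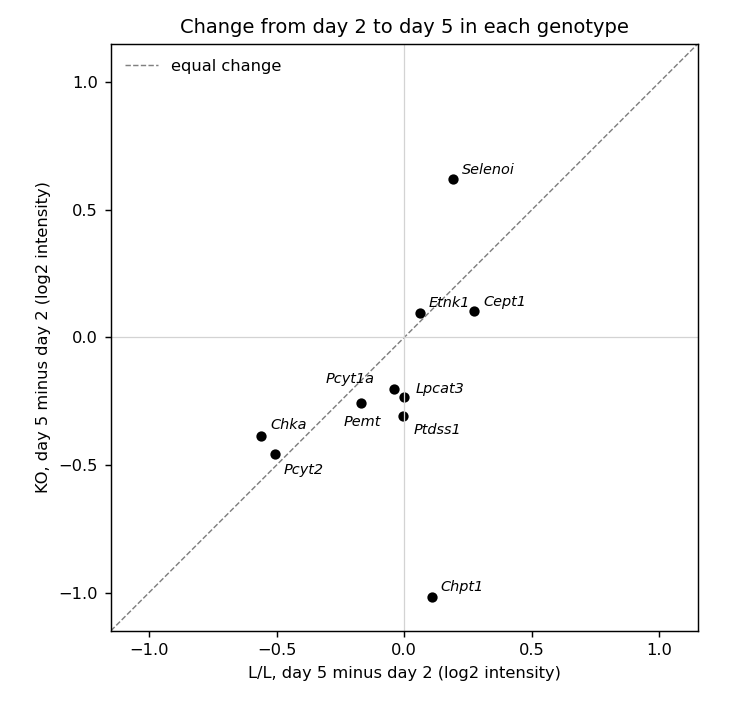
Log2 change from day 2 to day 5 in L/L (horizontal axis) and in KO (vertical axis) for the 10 genes, each point resting on 4 arrays, with a dashed line where both changes are equal. Pcyt2 (-0.51 in L/L, -0.46 in KO) and Chka (-0.56, -0.39) lie below 0 on both axes, and Chpt1 lies far below it, at 0.11 in L/L and -1.02 in KO.

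Other genes of phospholipid metabolism were grouped by their step, and the last list held liver X receptors and their targets. None of the 55 measured in 6 lists passed over the 3 days, and 1, Mboat1, passed for the change with day. Over all genes, 22.1% were higher and 17.4% lower in KO on all 3 days, the background for the counts of each list. Of 7 genes listed under the entry of choline and ethanolamine, 4 were lower in KO on all 3 days and none was higher on all 3. The 4 were Slc44a1, Slc44a3, Chkb and Chdh. Of these Chkb encodes a kinase, with differences of only -0.01, -0.05 and -0.09, and Chdh an enzyme of choline oxidation and not of entry. The medians of the list were -0.05, -0.13 and -0.17 by day. Chdh, which oxidises choline in mitochondria, was the lowest at 1698, 1650 and 1736 in L/L against 1645, 1218 and 941 in KO (mean -0.46 ± 0.42, SD over 3 days; change with day adjusted p = 0.0746). The highest was Slc44a2, a choline transporter, with a mean of 0.10.

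Of 11 genes that build the glycerolipid backbone, 6 were higher in KO on all 3 days and none was lower on all 3. Their medians were 0.10, 0.09 and 0.31. Gpat4, a glycerol-3-phosphate acyltransferase of the endoplasmic reticulum, had the highest mean, 0.35 ± 0.26 (SD over 3 days), with intensities of 234, 213 and 135 in L/L against 251, 266 and 207 in KO. Agpat3, which acylates lysophosphatidic acid, had the lowest at -0.09 in its brightest probe set. Its other 3 probe sets had means of -0.39, -0.25 and -0.35, each lower in KO on all 3 days.

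The 9 genes of the phosphatidylserine, phosphatidylinositol and cardiolipin branch had medians of -0.00, -0.10 and -0.05, with 1 higher and 3 lower on all 3 days. Cds1, which makes CDP-diacylglycerol, was the lowest at 2136, 2432 and 2161 in L/L against 1980, 1947 and 1413 in KO (mean -0.35 ± 0.25, SD over 3 days). A second Cds1 probe set had a mean of -0.08. Pgs1, which acts on the way to cardiolipin, was the highest at 0.16.

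In acyl chain remodelling Mboat1, an acyltransferase acting on lysophosphatidylethanolamine and lysophosphatidylserine, rose with day in KO relative to L/L. Its intensities were 106, 135 and 112 in L/L against 130, 246 and 469 in KO. The 3 L/L arrays lay close together, whereas KO was higher at each later day. The log2 differences were 0.29, 0.87 and 2.07, a change of 0.59 per day (SE 0.05, adjusted p = 0.0243 in limma). A dim second probe set had differences of 0.03, 1.05 and 2.00. Lclat1, an acyltransferase for cardiolipin and other anionic phospholipids, was the lowest of the 8 genes at -0.25, and the list's medians were 0.03, 0.09 and 0.14, with 4 genes higher and 1 lower on all 3 days.

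Among 13 genes for phospholipid breakdown the medians were 0.00, -0.02 and 0.06, with 3 higher and 2 lower on all 3 days. Plb1, the phospholipase of the brush border, had the lowest mean (-0.41 ± 0.59, SD over 3 days) and on day 5 stood at 1180 in L/L against 555 in KO. Its day 5 difference of -1.09 contrasts with 0.00 on day 3, and other Plb1 probe sets differed by -0.77, -0.47 and 0.16 on day 5. Gpcpd1, which cleaves glycerophosphocholine, had the highest mean, 0.32, in its brightest probe set. The other 2 above the limit for dim genes had means of 0.0961 and 0.16, with day 5 differences of -0.02 and 0.06 against 0.48.

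Liver X receptors are sterol sensors with Lpcat3 among their target genes. Of 7 measured genes of that list 0 were higher and 1 was lower on all 3 days, with medians of -0.05, 0.01 and 0.29. Abca1, a sterol exporter, was the highest (mean 0.29 ± 0.31, SD over 3 days), with differences of -0.03, 0.32 and 0.59. Abcg8, of the sterol exporter of the brush border, was the lowest at -0.11. Over all genes the medians were 0.01, -0.01 and 0.02.

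**Figure D5:**
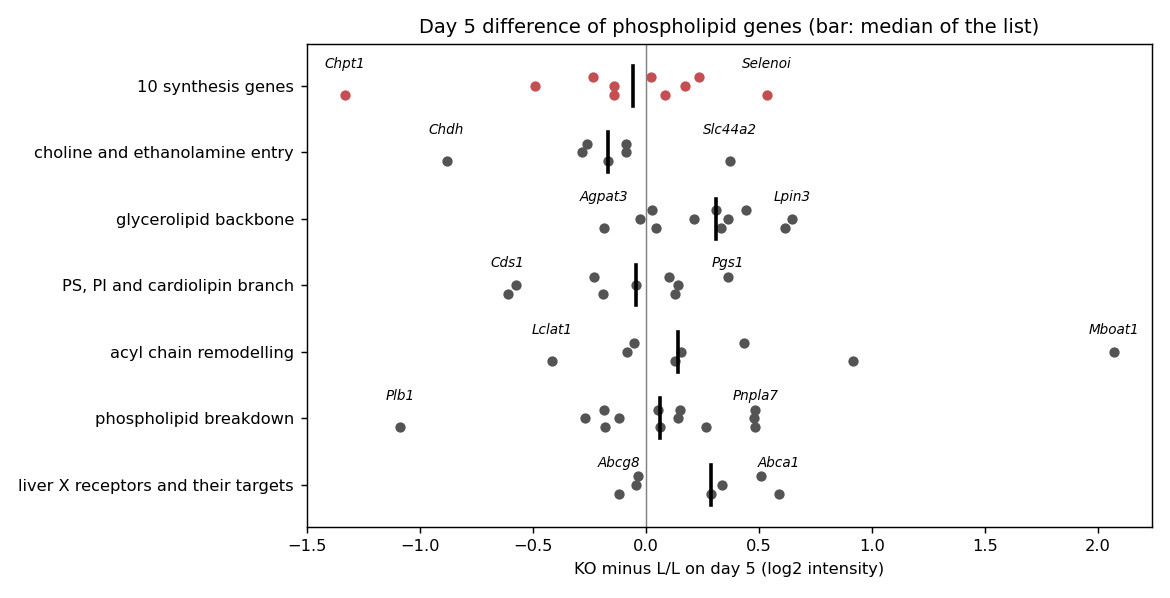
Log2 difference between KO and L/L on day 5 for the 10 synthesis genes (red) and for 6 lists of other genes (grey), 1 point per gene. The last list holds liver X receptors and their targets, and the others hold phospholipid genes. The median of each list is a bar, and the lowest and highest gene are named. PS and PI stand for phosphatidylserine and phosphatidylinositol. Chpt1 lies at -1.33 and Mboat1 at 2.07.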

How the data were processed

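The authors deposited 1 processed intensity per probe set for 6 Affymetrix 3' arrays, made with Partek and RMA per the submitters' processing notes, with no versions or parameters given. Deposited values between 3.82 and 31146 show a linear scale, so log2 was taken with no offset and no further normalization. Probe sets were named through the platform annotation, with symbols updated by gene ID, and those with several genes were left out. The brightest probe set stood for each gene, and genes were kept when its mean log2 lay above the 40th percentile of non-control probe sets (5.28).

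Tests used limma 3.58.1 in R 4.3.3 over 13042 genes, two-sided, with Benjamini-Hochberg adjustment at 0.05: genotype beside day as a factor (residual degrees of freedom 2, prior 3.03), the product of genotype and centred day (1 and 4.76), and day beside genotype. With pooled RNA and 1 array per group, no p-value measures the spread between mice, and 6 arrays limit precision. Those of the genotype and day tests rest on the spread between days or genotypes. That of the change with day rests on how far the 3 daily differences depart from a straight line. In each test the prior also brings in the variance of the other genes, most of all for the change with day. SD is over the 3 daily differences, SE is the moderated one, and confidence intervals are not adjusted. Named were the 10 genes, the lowest and highest mean difference of each list, any gene at an adjusted p under 0.05 and the 4 genes most correlated with the widest-ranging one. Members and lists were chosen with earlier results of these data known. Alternatives covered probe set choice, filters, offset, normalization, the variance prior and the days.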

Additional observations from a re-analysis of the deposited data

Results flagged for a closer look

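Chpt1 differed between days in the effect of genotype. The difference between KO and L/L changed by -0.39 on the log2 scale per day (SE 0.05, adjusted p = 0.0454 in limma over 13042 genes), from -0.21 on day 2 to -1.33 on day 5. All 3 KO arrays were lower than L/L on their day. With 6 arrays the product of genotype and day leaves 1 residual degree of freedom, and no day can be left out of that test.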

How the results depend on the processing

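Over the 3 days 0 of the 10 genes were called under any alternative run (limma). The 4 genes at an unadjusted p under 0.05 are those of the main fit, and they were not counted under the alternatives. The 1 call for a change with day, Chpt1, became 0 calls without the filter on dim genes (-0.39 per day, adjusted p = 0.169) and with days equally spaced (-0.56 per step, adjusted p = 0.0783). It was also lost with the probe sets of brightness rank 2 (-0.37, adjusted p = 0.09) and 4 (-0.30, adjusted p = 0.062), an alternative chosen after seeing the data. The Chpt1 mean difference was -0.87 without day 2, -0.77 without day 3 and -0.31 without day 5. The test of change with day has no residual degrees of freedom with a day left out and was not run so. The count of genes past 1.5-fold within L/L went from 1 to 0 between days 3 and 5 with the mean of all probe sets, and from 0 to 1 between days 2 and 5 with cyclic loess. The cause was not tested. Among results that were not called, these changed sign. Between days 2 and 3 the values were -0.0136 for Chka (mean of probe sets), -0.0592 for Pcyt1a, -0.0421 for Pcyt2 and -0.0187 for Lpcat3 (median centring), and -0.0417 for Pcyt1a and -0.0183 for Pcyt2 (cyclic loess). Median centring gave Pcyt2 a change with day of -0.00052. Probe sets of rank 2 gave -0.0633 for Selenoi and -0.0733 for Chka between days 2 and 3, -0.22 for Selenoi, 0.0954 for Pcyt1a and 0.50 for Chka between days 2 and 5, and -0.15 for Selenoi, 0.0474 for Pcyt1a, 0.57 for Chka and 0.56 for Etnk1 between days 3 and 5. Those of rank 3 gave -0.035 for the change of Etnk1 with day, -0.0953 for Chka between days 2 and 3, -0.32 for Selenoi and -0.0274 for Etnk1 between days 2 and 5, and 0.0314 for Chpt1 and -0.41 for Selenoi between days 3 and 5. Those of rank 4 gave Etnk1 a mean difference of -0.052, a change with day of -0.0705 and a day 5 minus day 2 value of -0.32, and Pcyt1a a change with day of 0.0181. Rank 5 gave Etnk1 0.00827 between days 3 and 5. Without day 5 the mean difference of Chka was -0.0383. The labels give no replicate numbers. The genotype test already matched KO and L/L by day, and without the day term it called 0 of the 10 genes (Chpt1 adjusted p = 0.678). Low signal limits Pemt most.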
